A study of Mus musculus with 27 samples.

Results

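The transcripts described here encode subunits of cohesin, measured by 4 probe sets of an Affymetrix mouse array in laser-captured pancreatic islets. The 4 genes sought were Rad21, Smc3, Smc1a and Stag2, and a probe set was taken where the platform annotation gave it 1 of these symbols alone. That gave 3 genes of the 8251 with a symbol of their own on the array, and 4 probe sets of the 12422 analysed: 94768_at for Rad21, 102853_at for Smc3, and 92513_at and 104595_at for Stag2. No probe set carried Smc1a as its only symbol, so Smc1a was not analysed here. The genes were chosen because of levels measured on these same arrays, with the deciding comparison not recorded, so their differences are given as a description with standard errors and without a test.

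Cohesin is a ring-shaped protein complex that encircles DNA. Its core is a pair of SMC ATPases, Smc1a and Smc3, closed by the kleisin Rad21, and a Stag protein, Stag1 or Stag2, binds Rad21. The ring holds sister chromatids together from DNA replication until mitosis, when separase cuts Rad21, and it also forms the chromatin loops that CTCF bounds, so it is present in dividing and in resting cells.

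All mice carried transgenes for MycER and for BclXL, each driven by an insulin promoter and therefore active mainly in beta cells. MycER is a fusion of the transcription factor Myc with an oestrogen receptor domain, which 4-hydroxytamoxifen switches on, and BclXL is a protein that blocks apoptosis. The untreated group was taken at time 0, and 4 groups were taken 2, 4, 8 and 24 h after an injection of 4-hydroxytamoxifen. A group was taken after 21 days of daily tamoxifen, and 3 further groups had the same 21 days followed by 2, 4 or 6 days without the drug. Each of the 9 groups had 3 arrays, 27 in all, and ages and strains were not given in the sources used here. No group in the labels lacked the transgenes, so the effect of the drug and that of MycER cannot be told apart.

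The values are log2 levels as the authors deposited them, and levels of different probe sets are not set against each other because probes differ in how strongly they bind. Array medians lay between 6.91 and 7.01. The beta cell marker Ins2 was bright, with 13.82 in untreated and 13.72 in 21-day islets on probe set 100150_f_at. On its probe set 161849_r_at it was lower at 21 days, with 11.94 in untreated and 11.28 in 21-day islets (limma adjusted p = 0.000421). Markers of acinar cells, the enzyme-producing cells around the islets, were not absent in any group: the mean of their 8 probe sets (8 of 15 listed genes) lay between 7.14 and 12.59 across arrays. The bacterial control probe sets, whose targets mouse RNA lacks, had means from 3.58 to 7.14. Only the control PheX-3 had the 7.14, and the next highest mean was 5.68. Levels between 5.68 and 7.14 that are said to lie in the range of these controls therefore rest on PheX-3 alone. Smc3 in the groups up to 21 days, from 5.65 to 6.92, lies in the range of the controls, and Stag2 104595_at lies partly in it. For these a signal above background was not shown. The Smc3 arrays off the drug, from 7.24 to 8.20, lie above the control means, but the brightest control reached 7.50 in an array. The first untreated array of Rad21, at 7.04, lies in the range of the control means too.

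Rad21, the kleisin that separase cuts, had a higher level at 24 h than in untreated islets, a higher one again after 21 days, and about the 21-day level after the drug was stopped. In untreated islets the Rad21 level was 7.04, 8.42 and 8.09 in the 3 arrays, a mean of 7.85 ± 0.72 (SD, n = 3). In such bulk samples, fewer cells of a type and less RNA per cell cannot be told apart. At 2 h it was 8.72, 7.90 and 8.00, at 4 h 8.14, 7.30 and 8.12, and at 8 h 8.08, 8.09 and 8.04. The untreated group had the widest spread, with its first array lowest, and the 2 h, 4 h and 8 h arrays overlapped it. At 24 h the Rad21 level was 8.69, 8.94 and 8.72, a mean of 8.78 ± 0.14 (SD, n = 3). After 21 days it was 9.14, 9.45 and 9.88, a mean of 9.49 ± 0.37 (SD, n = 3). Each 24 h array was above each untreated array, and each 21-day array was above each 24 h array. At 2 days off the drug the level was 9.76, 9.68 and 10.02, at 4 days off 9.93, 10.03 and 9.74, and at 6 days off 9.35, 9.61 and 9.61. All 9 of these arrays lay above every array of the first 24 h, and they overlapped the 21-day arrays.

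As differences of group means, the Rad21 log2 values against untreated were 0.36 at 2 h, 0.00 at 4 h, 0.22 at 8 h and 0.93 at 24 h, each with an SE of 0.28. After 21 days the log2 difference was 1.64 ± 0.28 (SE, n = 3 in each group), a 3.12-fold higher level, and 0.17% of all probe sets had a larger one. The 21-day group exceeded the 24 h group by 0.71 on the log2 scale, or by 0.13 with the mean of the acinar markers, which was lower at 21 days than at 24 h, as a covariate. The first untreated array pulled its group's mean down, and without it the differences were -0.05, -0.40, -0.18 and 0.53 at 2, 4, 8 and 24 h and 1.24 after 21 days, so the early ones turned below 0. That array had an acinar marker mean of 11.57, where the other untreated arrays had 8.57 and 9.22. Whether acinar RNA had a part in its low Rad21 level was not tested. Against the 21-day group, the differences after stopping were 0.33 at 2 days, 0.41 at 4 days and 0.03 at 6 days. At 6 days off, Rad21 was still 1.67 above untreated, or 3.19-fold. Ordered by mean, 4 days off and 2 days off came first, followed by 6 days off, 21 days, 24 h, 2 h, 8 h and the untreated and 4 h groups. The neighbours that did not overlap in that order were 2 days off and 6 days off, and 21 days and 24 h.

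**Figure D1:**
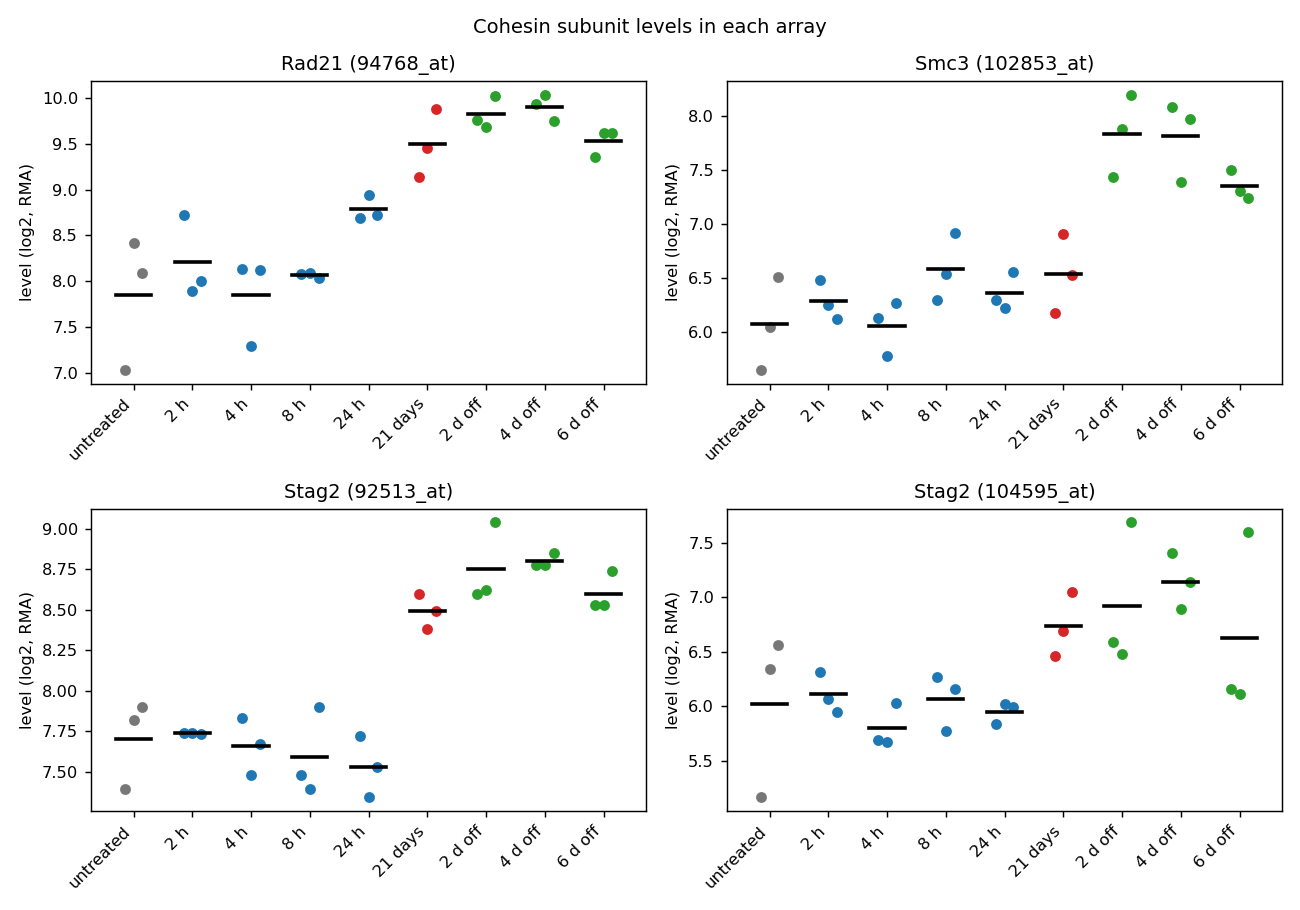
The 4 panels plot the log2 level of each cohesin probe set in each of the 27 arrays (points) with the mean of each group (bars), by group from untreated to 6 days off. Rad21 is higher at 24 h and higher again after 21 days (by 0.71, or 0.13 with the acinar covariate), both Stag2 probe sets have higher means from 21 days onward, and Smc3 is highest in the 3 groups off the drug.

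Smc3, the ATPase that acetylation locks onto DNA during replication, had its highest levels after the drug was stopped. In RefSeq the 250 bases before its start lie on the plus strand at chr19:53600146-53600395 of GRCm38.p6 and are 64.4% G and C. They are printed because Smc3 alone of the genes analysed had a promoter sequence in the source used, so Rad21 and Stag2 could not be searched. A match to the GC box, read as CCGCCC on this strand, is in capitals.
Smc3 promoter: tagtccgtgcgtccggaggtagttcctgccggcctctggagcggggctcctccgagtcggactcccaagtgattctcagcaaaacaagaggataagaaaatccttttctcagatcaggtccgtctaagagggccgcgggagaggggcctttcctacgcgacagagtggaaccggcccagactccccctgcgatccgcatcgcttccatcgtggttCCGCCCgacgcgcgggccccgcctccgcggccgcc
In the window of 300 bases that runs on past the start, the E-box CACGTG, the sequence to which Myc with Max is known to bind, had 0 matches on either strand, and 7.15% of 32851 mouse windows of that length held it. CACGCG, a variant of it, also had 0 matches, against 9.27% of windows. The GC box GGGCGG had 1 match, 35 bases before the start, against 35.7% of windows. The 3 motifs were searched on both strands and do not overlap in this window. These counts describe letters in the window and say nothing of binding.

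The Smc3 level in untreated islets was 5.65, 6.05 and 6.51, a mean of 6.07 ± 0.43 (SD, n = 3). It was 6.48, 6.25 and 6.12 at 2 h, 6.13, 5.78 and 6.27 at 4 h, 6.30, 6.54 and 6.92 at 8 h, and 6.30, 6.22 and 6.56 at 24 h. After 21 days it was 6.18, 6.91 and 6.53, a mean of 6.54 ± 0.37 (SD, n = 3). Each of the 5 groups taken on the drug overlapped the untreated arrays, while the 8 h arrays were all above the 4 h arrays. At 2 days off the drug the Smc3 level was 7.44, 7.88 and 8.20, a mean of 7.84 ± 0.38 (SD, n = 3). At 4 days off it was 8.09, 7.39 and 7.98, and at 6 days off 7.50, 7.31 and 7.24. Each of these 9 arrays was above all 18 arrays of the other groups, whose highest Smc3 level was 6.92.

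The Smc3 log2 difference from untreated was 0.21, -0.01, 0.52 and 0.29 at 2, 4, 8 and 24 h and 0.47 after 21 days, with an SE of 0.24. Without the first untreated array the 5 values were 0.00, -0.22, 0.31, 0.08 and 0.26. Against 21 days it was 1.30 at 2 days off (2.46-fold), 1.28 at 4 days off (2.43-fold) and 0.81 at 6 days off (1.75-fold). A larger difference was found in 0.10%, 0.16% and 2.02% of all probe sets, respectively. Leaving out any array, and every other alternative tried, kept these 3 differences between 1.12 and 1.5, 1.10 and 1.495, and 0.63 and 0.995. In order of mean the groups were 2 days off, 4 days off, 6 days off, 8 h, 21 days, 24 h, 2 h, untreated and 4 h, and 6 days off and 8 h were the neighbours that did not overlap.

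Stag2, the Rad21-bound subunit that helps to direct cohesin to chromatin sites, had a higher mean from 21 days onward on both of its probe sets. On 92513_at, the level in untreated islets was 7.39, 7.82 and 7.90, a mean of 7.70 ± 0.27 (SD, n = 3). At 2, 4, 8 and 24 h the means were 7.74, 7.66, 7.59 and 7.53, and the arrays of these groups ran from 7.34 to 7.90. After 21 days the level was 8.60, 8.38 and 8.49, a mean of 8.49 ± 0.11 (SD, n = 3). Each 21-day array was above all 15 earlier arrays. Off the drug, 92513_at was 8.60, 8.62 and 9.04 at 2 days, 8.78, 8.78 and 8.85 at 4 days, and 8.53, 8.53 and 8.74 at 6 days. The 4-day arrays were all above the 21-day arrays, and the 2-day and 6-day arrays overlapped them.

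The log2 difference of 92513_at from untreated was 0.79 ± 0.15 (SE, n = 3 in each group) after 21 days, or 1.73-fold, after -0.17 at 24 h. The 21-day level exceeded the 24 h level by 0.96, or 1.95-fold, and the 6-day-off level exceeded untreated by 0.90, or 1.86-fold. Against 21 days the differences off the drug were 0.26, 0.31 and 0.11. The other Stag2 probe set, 104595_at, was noisier and dimmer. Its untreated level was 5.16, 6.34 and 6.56, its 24 h level 5.84, 6.02 and 5.99, and its 21-day level 6.46, 6.69 and 7.05. Off the drug it was 6.59, 6.48 and 7.69 at 2 days, 7.41, 6.89 and 7.14 at 4 days, and 6.16, 6.11 and 7.60 at 6 days. Its 21-day arrays lay above the 24 h arrays, by 0.78 in the means or 0.09 with the acinar covariate, but overlapped the untreated arrays, with a difference of 0.71 ± 0.36 (SE, n = 3 in each group). Without the first untreated array that difference was 0.28.

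Within an array, the 92513_at level minus the 104595_at level had group means from 1.52 to 1.98, a range narrower than that of either probe set's group means between 24 h and 4 days off. Stag1, the paralogue that takes the place of Stag2 in other cohesin rings, did not pass the test in any of the 10 comparisons. Its level was 4.82, 4.85 and 5.12 in untreated islets, 4.81, 4.83 and 4.81 after 21 days, and 4.73, 4.86 and 4.93 at 4 days off. Its log2 difference after 21 days was -0.11 ± 0.13 (SE), which did not pass the test across all probe sets (limma adjusted p = 0.619). These levels are in the range of the bacterial controls. The difference between the Stag1 and Stag2 changes was not tested.

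The share of all 12422 probe sets whose 3 arrays of the first-named group all lie above those of the second gives the scale for the counts of members, and since the members were chosen on these arrays nothing is read from the counts. At 2, 4 and 8 h, 0 of the 4 members lay wholly above untreated, where 5.31%, 4.48% and 5.14% of probe sets did. At 24 h it was 1 of 4, Rad21, against 6.84%. After 21 days it was 2 of 4, Rad21 and Stag2 92513_at, against 16.5%. Between 21 days and 24 h it was 3 of 4, all but Smc3, against 24.1%. From 21 days to 2, 4 and 6 days off, 1, 2 and 1 of 4 lay wholly above, against 7.25%, 13.3% and 6.45%. Smc3 was that member each time, joined at 4 days by Stag2 92513_at. Between 6 days off and untreated it was 3 of 4, all but Stag2 104595_at, against 11.5%.

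**Figure D2:**
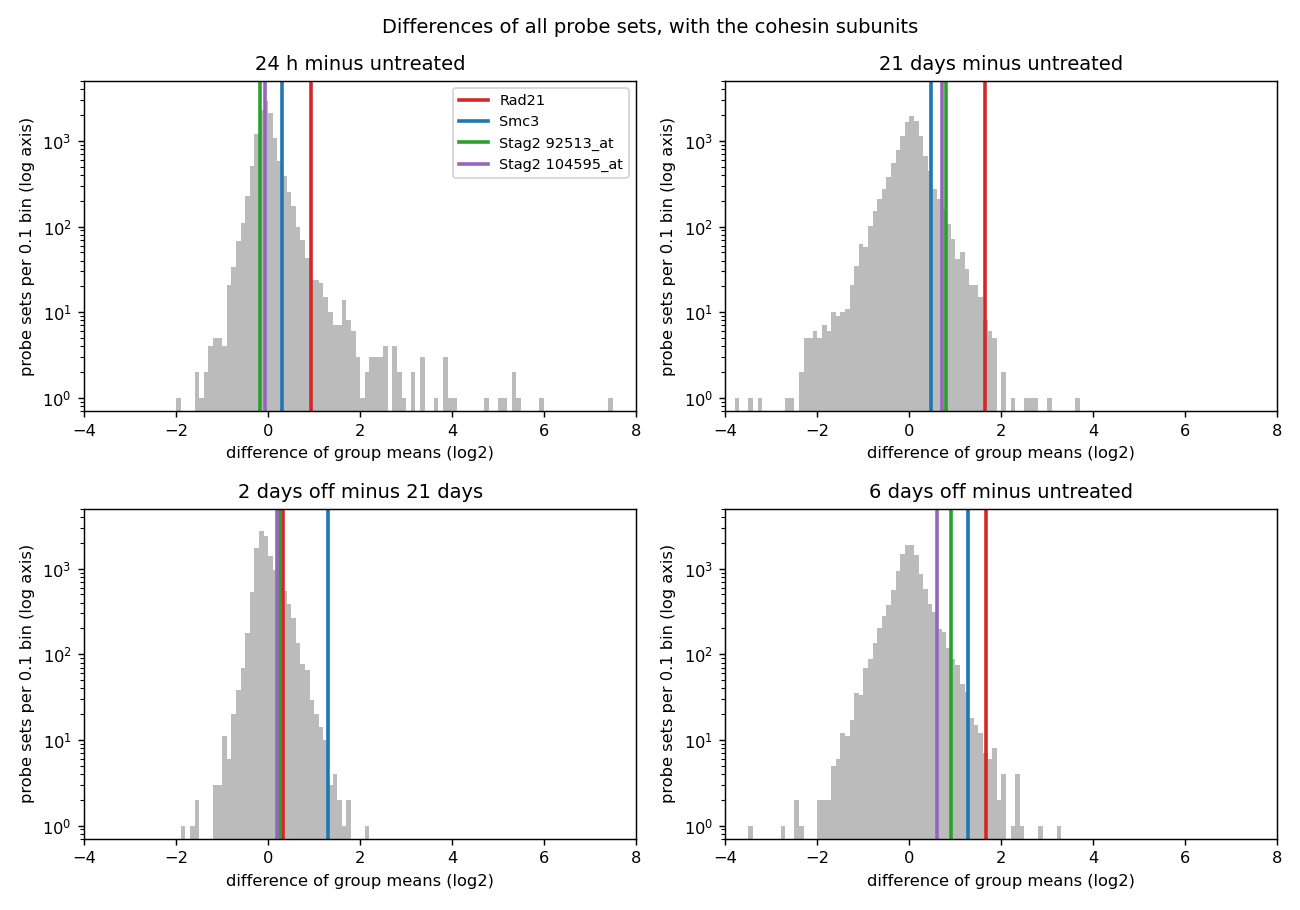
Each panel is a histogram of the log2 difference of group means over all 12422 probe sets (log count axis), with coloured lines at the 4 cohesin probe sets. Rad21 is far to the right after 21 days (1.64) and Smc3 is far to the right at 2 days off against 21 days (1.30), while the other members lie closer to 0 in those panels.

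The unequal changes of Rad21 and Smc3 can be restated as their difference within an array, in which shifts of the whole array cancel. The size of this difference has no meaning of its own, since it depends on the probes, but its shift between groups shows unequal change. Its group means follow from the levels given above and are no further evidence. Rad21 minus Smc3 was 1.39, 2.37 and 1.58 in untreated arrays, 2.39, 2.72 and 2.16 at 24 h and 2.96, 2.54 and 3.35 after 21 days. Off the drug it was 2.32, 1.80 and 1.82 at 2 days, 1.84, 2.64 and 1.76 at 4 days, and 1.85, 2.30 and 2.37 at 6 days. The 21-day arrays were all above the untreated arrays and above the 2-day-off and 6-day-off arrays, and overlapped the 4-day-off arrays through a single array at 2.64. The group mean was 1.78 ± 0.52 in untreated, 2.95 ± 0.41 after 21 days and 1.98 ± 0.29 at 2 days off (SD, n = 3 each).

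**Figure D3:**
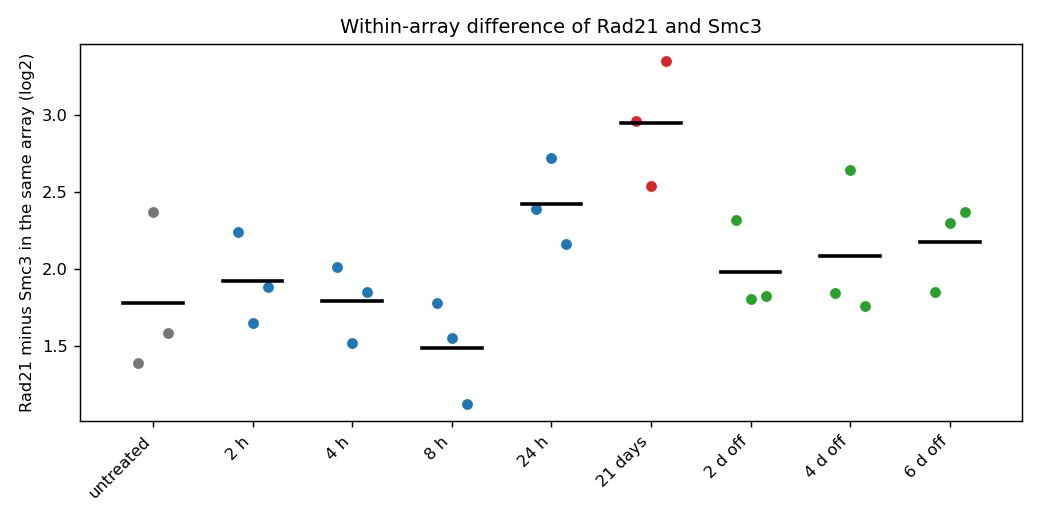
Points show the Rad21 level minus the Smc3 level (log2) in the same array, and bars the mean of the 3 arrays of each group. The 21-day arrays are the highest on the mean (2.95), and the groups off the drug return to means of 1.98 to 2.17.

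Across the 9 group means the members' levels varied together, with Pearson r from 0.871 to 0.966 between pairs of probe sets. Among the deviations of the 27 arrays from their group means r was 0.425 to 0.609. These are descriptions over arrays that share groups and, within an array, the same RNA. Candidates for a like pattern were probe sets of other genes whose group means passed a floor on their spread. That floor was set below the spread of the member itself, so narrower patterns were allowed. Among 1049 such probe sets, the genes whose 9 group means followed Rad21 most closely were Laptm4a (r = 0.988), Ndufa9 (0.985), Coa6 (0.984), Ywhah (0.984) and Grcc10 (0.984). For Smc3, among 1728 such probe sets, they were Ubqln1 (r = 0.991), Rraga (0.980), Mrps22 (0.975), Ube2v2 (0.971) and Dido1 (0.970). Each r is over 9 group means.

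A list of genes around cohesin held its loaders, releasing factors, acetylases, protectors and proteases, other Stag and meiotic subunits, CTCF and replication fork proteins, and 18 of its 32 genes were on the array, with 25 probe sets. In a limma fit over all probe sets, those with an adjusted p below 0.05 are called changed. The count over all probe sets itself depends on single arrays: with 1 array left out, the 171 called at 24 h became 50 to 227, the 211 at 8 h 71 to 282, and the 1819 after 21 days 1140 to 1605. The 49 at 2 h became 18 to 98, the 99 at 4 h 22 to 88, and the 2587 between 21 days and 24 h 1512 to 2357. Against 21 days, the 19 at 2 days off became 0 to 99 and the 34 at 6 days off 9 to 54, and the 1456 at 6 days off against untreated became 778 to 1409. At 2 h and 4 h, 0 of 25 changed, while 0.394% and 0.797% of all probe sets did, and 0 and 2 of the 25 had an unadjusted p below 0.05. The furthest from 0 were Cdca5 161332_f_at at 2 h, with a log2 difference of -0.28, and at 4 h Wdhd1, a replication fork protein, with 1.04. Neither passed the test (limma adjusted p = 0.685 and 0.469). At 8 h, Tipin, which stabilises replication forks, rose by 0.74 ± 0.13 (SE, n = 3; limma adjusted p = 0.00457), the only one called of the 25, while 1.7% of all probe sets changed; fitted on the 2 groups alone it was not called (limma adjusted p = 0.213). Wdhd1 stood at 1.60 without passing (limma adjusted p = 0.072). The Tipin levels, 5.54 in untreated islets and 6.29 at 8 h, lie in the range of the bacterial controls.

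At 24 h, 4 of the 25 rose and 0 fell, while 1.38% of all probe sets changed. They belonged to 3 genes with roles in mitosis. Bub1, a kinase of the spindle checkpoint that marks centromeres for cohesin protection, rose from 3.85 ± 0.06 to 6.20 ± 1.02 on 97095_at, a log2 difference of 2.34 ± 0.35 (SE, n = 3; limma adjusted p = 0.000784). The untreated levels of the 4 probe sets called, from 3.85 for Bub1 to 6.71 for Cdca5 161332_f_at, lie in the range of the bacterial controls, so a signal above background was not shown there. The other Bub1 probe sets, 104097_at and 162264_s_at, had 1.17 and -0.11 and were not called. Plk1, the kinase that removes cohesin from chromosome arms, rose by 1.11 on 93099_f_at (limma adjusted p = 0.00456), and its other 2 probe sets, with 0.38 and 0.50, were not called. Cdca5, sororin, which keeps cohesin on DNA after replication, rose on both of its probe sets, by 0.89 and 1.18 (limma adjusted p = 0.0157 and 0.0227). Without the second 24 h array, 2 of the 25 were called and Cdca5 was not (limma adjusted p = 0.142 and 0.213), and without the third the count was also 2; fitted on the 2 groups alone, only Plk1 was called and Bub1 had an adjusted p of 0.0957 (limma). The median over the list was 0.19 against -0.04 for all probe sets.

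Bub1 and Plk1 are also in a list of cycling-cell markers, of which 10 of 36 probe sets were called higher at 24 h, where 1.38% of all probe sets changed. Among them were Mki67 99457_at, by 3.11, and Top2a, by 2.54 (limma adjusted p = 0.0367 and 0.0219), while Mki67 161931_r_at had 0.15 and was not called. Rad21, which is not in that list, had 0.93 at 24 h. Between 24 h and 21 days, 8 of the 36 cycling probe sets fell and 1 rose, where 20.8% of all probe sets changed, and Top2a was at -1.82 (limma adjusted p = 0.0251). Whether proliferation has a part in the Rad21 levels was not tested.

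After 21 days, 3 of the 25 were higher than in untreated islets and 0 were lower, while 14.6% of all probe sets changed. Nipbl, the loader that puts cohesin onto DNA, was 8.05, 8.23 and 8.71 in untreated arrays, 8.06, 8.13 and 8.24 at 24 h, and 8.99, 8.87 and 9.0 after 21 days. It rose by 0.62 ± 0.19 (SE, n = 3; limma adjusted p = 0.0312). Mau2, its partner in loading, had 0.03 and was not called. Ppp2r1a, a scaffold of the phosphatase that protects cohesin, rose by 0.56 (limma adjusted p = 0.0123), and Bub1 97095_at by 1.13 (limma adjusted p = 0.0342). The 21-day level of Bub1 97095_at, 4.98, lies in the range of the bacterial controls, and the other Bub1 probe sets were not called. CTCF's own transcript had a difference of 0.00. Nipbl was called in 8 of 15 alternatives and Bub1 in 6 of 14, with adjusted p up to 0.140 and 0.124, while Ppp2r1a was lost only without the first 21-day array (limma adjusted p = 0.0731), when 0 of the 25 were called. Without the first or second untreated array, or the second or the third 21-day array, 1 was called.

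Between 24 h and 21 days, 2 of the 25 rose and 5 fell, while 20.8% of all probe sets changed. Nipbl rose by 0.81, the same direction as Rad21 and Stag2 (limma adjusted p = 0.00491), and Sgo1 103928_at, shugoshin, which guards centromeric cohesin, by 0.31 (limma adjusted p = 0.038). Plk1 93099_f_at fell by 0.87, Bub1 97095_at by 1.22, Aurkb by 0.72 and Cdca5 160699_at by 0.55 (limma adjusted p = 0.00425, 0.0176, 0.0118 and 0.0392), and so did Chtf8, part of a loader of the replication clamp, by 0.77 (limma adjusted p = 0.0227). Aurkb is the kinase of the chromosomal passenger complex. The mean levels of the called Sgo1, Plk1, Bub1 and Cdca5 probe sets, up to 7.03 for Plk1 at 24 h, lie in the range of the bacterial controls. The other probe sets of these genes were not called. The list's median was -0.16 against 0.07 over all probe sets. Without the second or the third 24 h array 4 and 3 of the 25 were called, and without the second or the third 21-day array 4 and 3.

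Off the drug, few regulators were called. Against 21 days, 0 of 25 changed at 2 days and 0 of 25 at 6 days, where 0.153% and 0.274% of all probe sets changed, with 1 of the 25 at an unadjusted p below 0.05 each time. Bub1 97095_at was furthest from 0, with -0.60 and -0.67 (limma adjusted p = 0.391 and 0.406). At 4 days, 1 of 25 changed, while 6.01% of all probe sets did: Pds5b, which helps Wapl to release cohesin, rose by 0.59 (limma adjusted p = 0.0247). It was not called without the first or second 21-day array or the first or the third 4-day-off array (limma adjusted p up to 0.151). Its levels, 4.44 at 21 days and 5.03 at 4 days off, lie in the range of the bacterial controls. Bub1 97095_at had -1.01 at 4 days off against 21 days (limma adjusted p = 0.076). At 6 days off, Ppp2r1a was 0.74 above untreated, the only one of 25 called (limma adjusted p = 0.00256), while 11.7% of all probe sets changed; fitted on the 2 groups alone it was not called (limma adjusted p = 0.0721), and without the first untreated array 3 were. Over all probe sets the count of called changes at 4 days off was 746, and it was 1 without the first 4-day-off array.

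Condensin, which compacts chromosomes, and the Smc5/6 complex, which acts in DNA repair, are the relatives of cohesin built on SMC proteins, and 8 of 15 listed genes had 9 probe sets. At 24 h, 2 of the 9 rose, where 1.38% of all probe sets changed: Smc4 by 1.20 and Ncaph 95753_at by 1.18, both condensin subunits (limma adjusted p = 0.0423 and 0.0327). Neither was called when any 1 of the 3 untreated arrays, or the second or the third 24 h array, was left out (limma adjusted p up to 0.318 and 0.256). Smc2, the partner of Smc4, had the furthest value from 0, at 1.45 ± 0.57 (SE), and was not called (limma adjusted p = 0.285). After 21 days, when 14.6% of all probe sets changed, Nsmce1, a subunit of Smc5/6, was the only probe set called of 9, higher by 0.66 (limma adjusted p = 0.0334), and not called without the first or second untreated or the first or the third 21-day array (limma adjusted p up to 0.149), and Smc2 stood at 1.58 (limma adjusted p = 0.064). Ncaph2, of the second condensin, was the only 1 of 9 called between 24 h and 21 days, where 20.8% of all probe sets changed, and fell by 0.84 (limma adjusted p = 0.00173). At 4 days off, Nsmce3 alone of the 9 rose over 21 days, by 0.69 (limma adjusted p = 0.0166; 6.01% of all probe sets changed). At 6 days off, Nsmce1 alone was above untreated, by 0.83 (limma adjusted p = 0.0105; 11.7% of all probe sets changed). The Nsmce3 call was lost without the second 21-day array or the first or the third 4-day-off array (limma adjusted p up to 0.0902), and the Nsmce1 call without the first untreated or the first 6-day-off array (limma adjusted p up to 0.0691). At 2, 4 and 8 h, 0 of 9 were called, with 0, 0 and 3 at an unadjusted p below 0.05; at 2 and 6 days off against 21 days 0 of 9 were called, with 1 each. At 8 h and at 24 h all 9 had means above untreated, where 38.2% and 40.4% of all probe sets did. The list's medians were 0.37 and 0.42, against -0.06 and -0.04 over all probe sets. Between 24 h and 21 days the median was -0.31 against 0.07. The untreated levels of Ncaph 95753_at (4.70), Smc2 (5.43), Smc4 (6.80) and Nsmce1 (6.99) lie in the range of the bacterial controls.

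**Figure D4:**
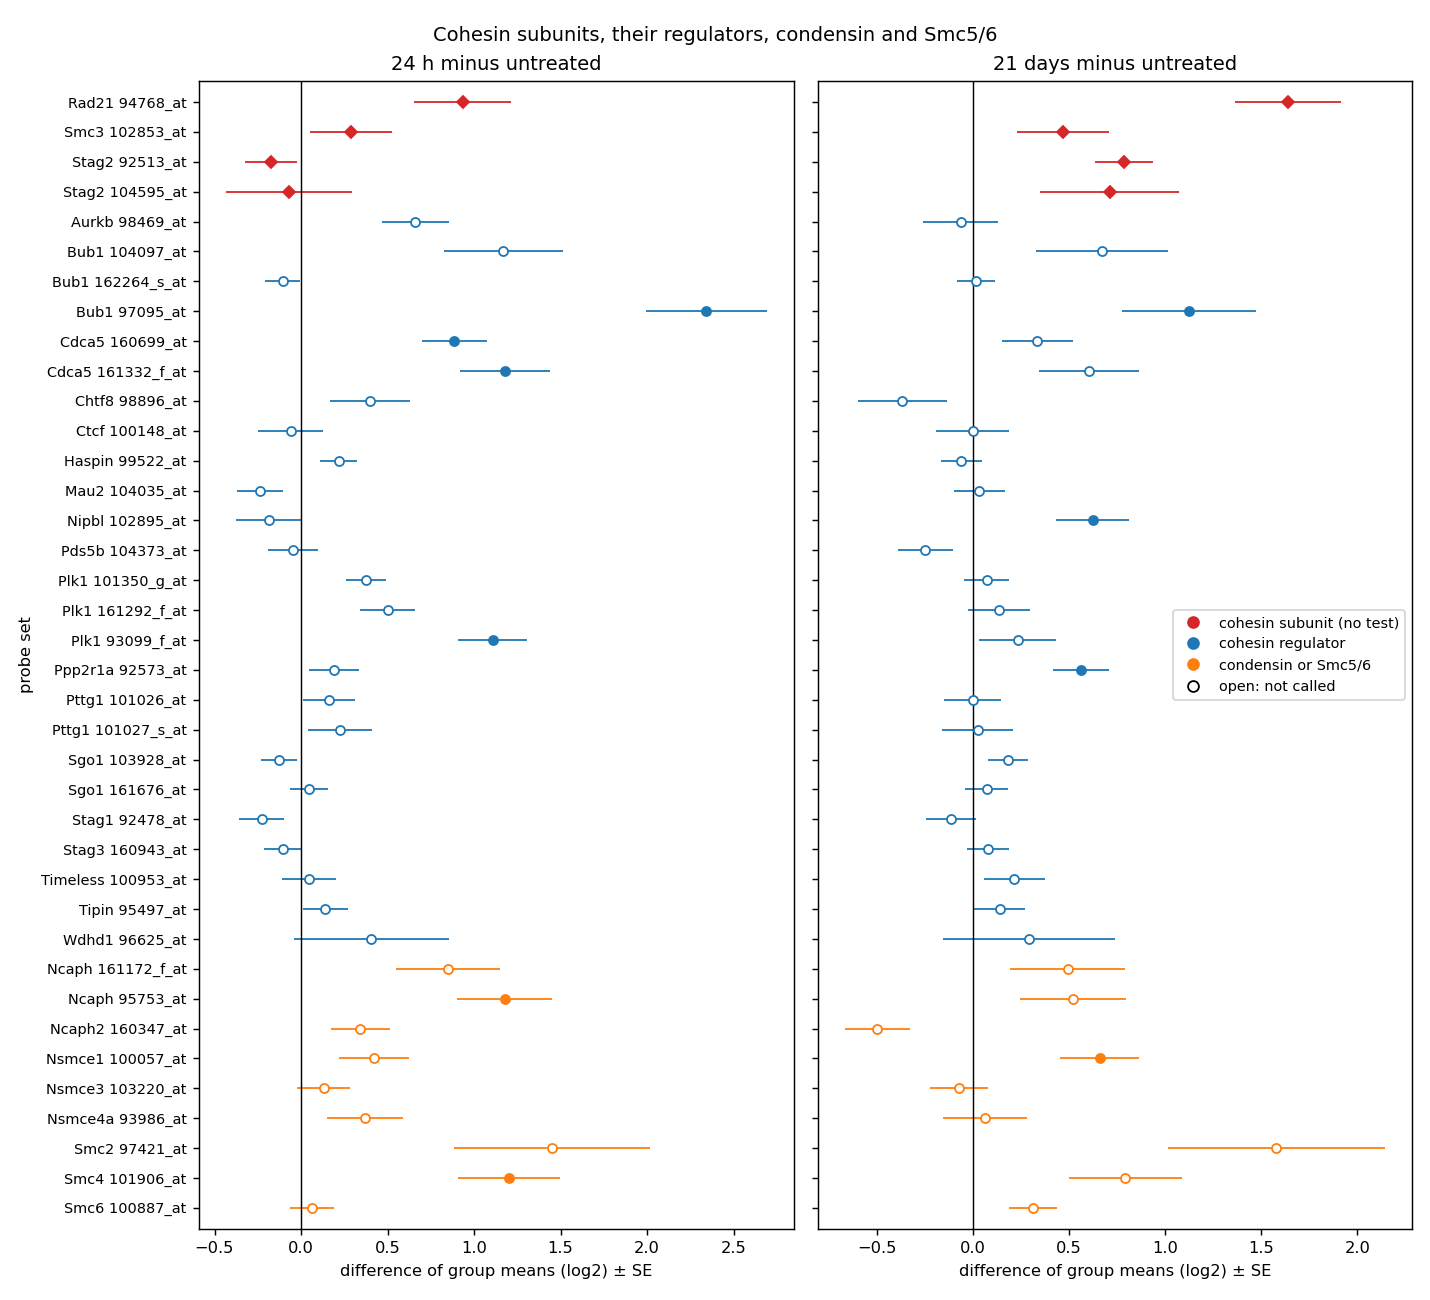
Log2 differences of group means (points) with standard errors (bars) for the 4 cohesin probe sets (diamonds, no test), 25 probe sets of cohesin regulators and 9 of condensin and Smc5/6, at 24 h and after 21 days, each against untreated. Filled circles are called by limma; Bub1 97095_at is the largest at 24 h (2.34), and Rad21 has the largest value drawn after 21 days (1.64).

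Some measures of the arrays moved with the same groups. The mean of the 8 acinar marker probe sets was 12.01 to 12.59 at 24 h and 7.63 to 8.50 after 21 days. All 8 were called lower at 21 days than at 24 h, where 20.8% of all probe sets changed. With that mean as a covariate, chosen after seeing the data, the Rad21 difference between 21 days and 24 h was 0.13 in place of 0.71 and that of Stag2 104595_at 0.09 in place of 0.78, while Stag2 92513_at kept 0.87. At 24 h against untreated, the Rad21 difference was 1.275 with it in place of 0.93, and that of Stag2 104595_at 0.34 in place of -0.07. The same covariate ended the Nipbl, Sgo1, Plk1, Bub1, Cdca5, Aurkb and Ncaph2 calls between 21 days and 24 h. It also ended the Plk1, Cdca5, Smc4 and Ncaph calls at 24 h and the Nipbl and Bub1 calls after 21 days, each against untreated. The Smc3 differences off the drug were 1.30, 1.28 and 0.80 with it. The part of acinar RNA in the Rad21 values was not otherwise tested.

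The 3′ minus 5′ signal of Gapdh, a measure of RNA degradation, was 4.83 ± 0.08 after 21 days and 3.54 ± 0.65, 3.83 ± 0.32 and 3.92 ± 0.47 at 2, 4 and 6 days off (SD, n = 3 each), and every array off the drug was below every 21-day array. The Gapdh signal was close to the 21-day value in untreated islets (4.75 ± 1.02) and at 8 h (4.78 ± 0.24), and lower at 24 h (3.78 ± 0.11). That of actin had means of 2.39 after 21 days and 2.68, 2.61 and 2.85 off the drug, the opposite order. With the Gapdh measure as a covariate the Smc3 differences off the drug were 1.17, 1.18 and 0.72, and the Rad21 difference at 2 days off turned from 0.33 to -0.03. Among deviations from group means, Smc3 had r = 0.589 with the actin measure and -0.205 with the Gapdh measure. The actin measure was not fitted as a covariate, so its part in the Smc3 differences was not tested. Leukocyte markers were high in 4 arrays, and without those arrays the Smc3 differences were 1.28, 1.28 and 0.74. In beta cell markers, 5 of 9 probe sets were called lower at 21 days than in untreated islets, where 14.6% of all probe sets changed. Among them was Pdx1, lower by 1.01 (limma adjusted p = 0.0019). The part of these lower markers in the Rad21 and Stag2 levels was not tested.

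**Figure D5:**
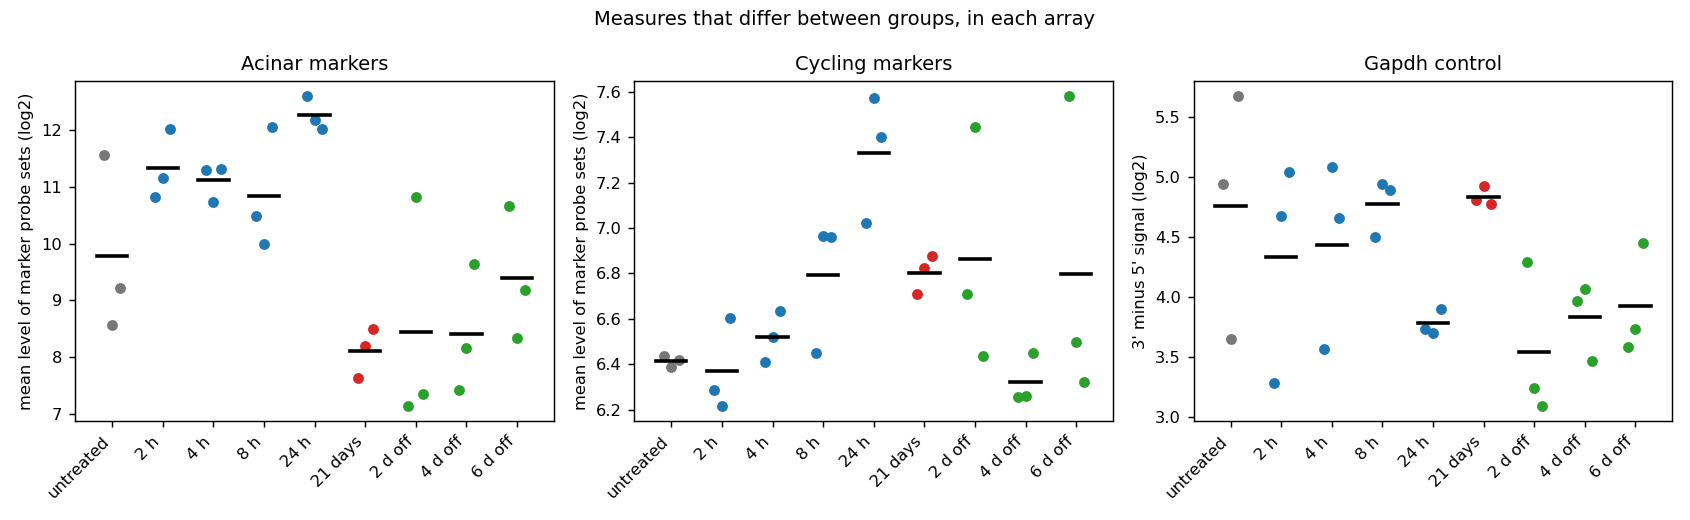
The panels plot, for each of the 27 arrays (points, group means as bars), the mean level of the acinar markers, the mean level of the cycling markers and the 3′ minus 5′ signal of Gapdh, all log2. On the mean, the acinar markers are lowest (8.11) and the Gapdh 3′ minus 5′ signal is highest (4.83) in the 21-day group, although single arrays off the drug have lower acinar levels, and cycling markers are highest on the mean at 24 h (7.33). The Gapdh mean is nearly as high in untreated islets (4.75) and at 8 h (4.78).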

How the data were processed

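Total RNA from laser-captured islets was amplified through a second round before hybridisation, per the labels. The log2 levels are the authors' own: the deposited series table was made with RMA, per the submitters' processing notes, for which no source used here gives a version or settings. Of 12488 rows, 66 control probe sets were left out and 12422 kept, with no filter on low values. Group differences came from limma 3.58.1 in R 4.3.3, fitted on all 27 arrays with 9 group means and 18 residual degrees of freedom, with Benjamini-Hochberg adjustment over all probe sets, and the fit was tested on simulated data. A call is an adjusted p below 0.05.

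Members and lists were chosen with earlier results of these data known. Adjusted p-values planned for Stag2 were left out, since its independence of the choice could not be shown. Named were all members, each called list gene (up to 6 per list and comparison), the list probe set furthest from 0, marker genes and the 5 probe sets most like Rad21 and Smc3 in pattern. The labels do not say that arrays of a group came from separate mice, so p-values measure the spread between these arrays, which may be technical; 3 arrays a group limit the precision. Alternatives were quantile normalization, trended robust variance, array weights, a filter leaving out the lowest 40% of probe sets, the replicate number as a block, the 2 groups alone, each array left out in turn and, added after seeing the data, 3 others (Gapdh covariate, acinar covariate, 4 leukocyte-rich arrays left out). Samples were not paired by replicate number in the main fit.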

Additional observations from a re-analysis of the deposited data

How the results depend on the processing

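Of 590 recomputed differences of the 4 cohesin probe sets, 585 moved by less than the spread between arrays. Leaving out a single array cannot move a difference by more than that. The trended variance, the filter, the block and the 2 groups alone leave the differences as they are. For these alternatives the count was therefore fixed in advance, and sign changes without the first untreated array are included in it. Rad21 at 21 days against 24 h moved to 0.9984 with the Gapdh covariate and 0.1338 with the acinar covariate, and at 2 days off against 21 days it turned to -0.0271 with the Gapdh covariate; the causes were not tested. The lowest 40% filter left out Stag2 104595_at, 13 of the 25 regulator and 4 of the 9 condensin probe sets.

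Counts of called regulators are given first, then their alternatives. At 8 h (1), array weights gave 2, the filter 0, the 2 groups alone 0. At 24 h (4), the filter, the acinar covariate and the 2 groups alone gave 1 and the Gapdh covariate 2. Between 21 days and 24 h (7), array weights gave 14, the filter 3 and the acinar covariate 2. At 4 days off against 21 days (1), array weights gave 8, the 2 groups alone 6, the acinar covariate 4, without the leukocyte-rich arrays 3, and the filter and the Gapdh covariate 0. At 6 days off (0), array weights gave 1. At 6 days off against untreated (1), array weights gave 3, the acinar covariate 2 and the 2 groups alone 0.

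For condensin and Smc5/6, at 8 h (0) leaving out the leukocyte-rich arrays gave 1. At 24 h (2), the filter gave 1, and the Gapdh covariate, the acinar covariate and the 2 groups alone 0. After 21 days (1), quantile normalization, array weights and the filter gave 2, the acinar covariate and the 2 groups alone 3, and without the leukocyte-rich arrays 4. Between 21 days and 24 h (1), array weights gave 3, the acinar covariate 0 and without the leukocyte-rich arrays 2. At 2 days off (0), array weights gave 1. At 4 days off (1), array weights gave 3 and the 2 groups alone 2. At 6 days off against untreated (1), array weights and the acinar covariate gave 2, and the 2 groups alone and without the leukocyte-rich arrays 0.

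Leaving out each array in turn gave, for regulators, 1 to 2 at 8 h, 2 to 5 at 24 h, 0 to 2 at 21 days, 3 to 9 between 21 days and 24 h, 0 to 1 at 4 days off and 1 to 3 at 6 days off against untreated. For condensin and Smc5/6 it gave 0 to 3 at 24 h, 0 to 3 at 21 days, 1 to 3 between 21 days and 24 h, 0 to 1 at 4 days off and 0 to 2 at 6 days off against untreated.

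With the replicate number as a block, the regulators called at 8 h were 2 (1 without), and condensin probe sets at 24 h were 1 (2 without). Same-numbered samples correlated above 0.1 in 11 of 30 pairs, and no comparison had every pair above 0.1, so they were not treated as pairs. For 6 days off against untreated the values were 0.320, 0.099 and 0.154. So few pairs do not show whether same-numbered samples shared a batch. Array number and signal near the bacterial controls limit Smc3 and Stag2 104595_at, and the first untreated Rad21 array also lies in the range of those controls.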
